A study of Mus musculus with 58 samples.

Results

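PU.1 binding was examined at the genomic sites that carried a PU.1 peak under every diet and lay outside promoters in hematopoietic stem cells (HSCs) of old male C57BL/6J mice. The sites were chosen by measured values, the peak calls of 6 chromatin immunoprecipitation (ChIP-seq) libraries. A peak of the first ad lib library was kept when it overlapped by at least 1 bp a peak in each of the other 5 libraries and no 750-bp promoter window of the H3K4me3 table. Of the 3046 peaks of that library, 1422 were shared by all 6 libraries, 193 of these lay at a promoter, and the remaining 1229 (40.3% of the 3046) are the shared sites described here. For comparison, 1369 peaks outside promoters were missing from at least 1 other library.

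The old mice were 24 to 26 months of age and had been fed ad libitum for life (OAL), kept on 40% caloric restriction (CR) started at 3 to 4 months (OCR), or kept on the same CR and then given ad lib food for 4 weeks (OCRRF). HSCs had been sorted as LSK CD34-Flk2-CD150+ cells, and each PU.1 ChIP used 20000 of them. There were 2 PU.1 libraries per diet, 4 RNA-seq libraries each of OAL and OCR and 2 of OCRRF, 4 ATAC-seq libraries of OCR and 2 of OCRRF, and 2 ChIP-seq libraries of OCR for each histone mark. Open chromatin and histone marks of OAL mice were not analysed here, and the labels do not say whether libraries came from separate animals or pools, so p-values measure the spread between libraries, which may be technical.

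PU.1 is an ETS-family transcription factor encoded by Spi1. It binds a purine-rich sequence around a GGAA core, mostly at distal enhancers, and is required for the myeloid and lymphoid lineages. In HSCs it is present at lower levels than in macrophages and is known to restrain cell cycle entry, and an enhancer upstream of Spi1 is itself bound by PU.1.

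The reference sequence around the summits of 12 shared sites is given to show what the bound letters look like at genes named in the results (mouse mm10/GRCm38, plus strand, 101 bases centred on the summit). In the first 8 sequences the capitals mark GAGGAAGT or its reverse complement, the PU.1 letters searched for here. The last 4 do not hold these letters in this window, and there the capitals mark the shorter ETS core GGAA or its reverse complement.
Gm6712 site (chr17:17234367-17234467): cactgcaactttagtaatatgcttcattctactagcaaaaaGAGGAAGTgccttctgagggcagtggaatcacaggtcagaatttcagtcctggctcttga
Cd81 site (chr7:143038719-143038819): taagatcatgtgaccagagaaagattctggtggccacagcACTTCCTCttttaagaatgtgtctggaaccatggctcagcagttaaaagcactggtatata
Btg1 site (chr10:96471690-96471790): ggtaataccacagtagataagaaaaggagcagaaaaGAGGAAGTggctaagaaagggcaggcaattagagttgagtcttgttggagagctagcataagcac
Itgb7 site (chr15:102225522-102225622): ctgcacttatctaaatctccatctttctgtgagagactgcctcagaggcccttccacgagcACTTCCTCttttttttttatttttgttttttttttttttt
Meis1 site (chr11:18970113-18970213): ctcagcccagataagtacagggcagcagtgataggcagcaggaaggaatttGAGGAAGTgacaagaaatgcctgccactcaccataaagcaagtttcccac
Mecom site (chr3:30105202-30105302): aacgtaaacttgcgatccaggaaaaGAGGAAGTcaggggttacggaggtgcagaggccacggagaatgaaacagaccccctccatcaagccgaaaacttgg
Itga6 site (chr2:71814189-71814289): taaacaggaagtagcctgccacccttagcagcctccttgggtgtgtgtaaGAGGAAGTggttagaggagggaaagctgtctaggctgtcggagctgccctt
E2f8 site (chr7:48908855-48908955): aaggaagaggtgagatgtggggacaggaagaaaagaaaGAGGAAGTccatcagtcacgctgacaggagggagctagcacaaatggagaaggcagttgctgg
Spi1 site (chr2:91083009-91083109): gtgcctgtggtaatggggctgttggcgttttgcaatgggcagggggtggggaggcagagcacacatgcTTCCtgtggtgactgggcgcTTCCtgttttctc
Kdr site (chr5:75981101-75981201): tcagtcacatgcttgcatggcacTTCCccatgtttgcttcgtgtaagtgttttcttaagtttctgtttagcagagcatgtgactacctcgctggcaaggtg
Id2 site (chr12:25223701-25223801): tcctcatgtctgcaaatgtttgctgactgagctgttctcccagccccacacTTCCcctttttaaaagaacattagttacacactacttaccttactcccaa
Mki67 site (chr7:135735977-135736077): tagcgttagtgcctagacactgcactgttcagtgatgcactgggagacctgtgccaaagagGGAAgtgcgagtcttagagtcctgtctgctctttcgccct

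These letters lay close to where PU.1 signal peaked. GAGGAAGT on either strand occurred within 100 bp of the summit at 540 of the 1215 shared sites with chromosome sequence (44.4%). The share was 35.8% of the peaks outside promoters that were not shared by all and 5.64% of the 131918 ATAC consensus peaks. All ATAC shares given here used windows of the same length around the middle of the ATAC peak, not around a summit. At the 540 sites the letters were a median of 11 bp from the summit, and 414 of them (76.7%) were within 25 bp. The bare core GGAA, which is contained in the longer motif, was present in 98.7% of shared sites and 92.4% of ATAC peaks, a difference of few percentage points. Letters of other hematopoietic factors were about as frequent as in open chromatin generally. The RUNX letters TGTGGT were found in 22.9% of shared sites and 21.5% of ATAC peaks, the GATA letters AGATAA in 9.96% and 10.1%, the CEBP letters TTGCNNAA in 10.1% and 8.61%, the AP-1 letters TGANTCA in 8.56% and 9.48%, and the E-box CANNTG in 64.9% and 64.2%.

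The shared sites were distal, as the rule left out promoters, and mostly open. In both they were close to the peaks outside promoters that were not shared by all. Summits lay in introns of GENCODE M21 protein-coding genes at 593 sites (48.3%) and between such genes at 592 (48.2%), with 23 in coding exons and 21 in UTRs. The median distance to the nearest transcription start site (TSS) of a protein-coding RefSeq transcript was 26.2 kb, and 796 sites (64.8%) were within 50 kb. For the peaks outside promoters that were not shared by all, the median was 27.0 kb and 64.1% were within 50 kb. ATAC consensus peaks overlapped 1140 sites (92.8%), against 91.1% of the peaks outside promoters that were not shared by all. Their median level at the shared sites in OCR HSCs was 14.4 CPM per kb (CPM, counts scaled to library size). It was 5.43 over all ATAC consensus peaks and 12.0 at the peaks outside promoters that were not shared by all. Among the 89 sites outside ATAC peaks, 75 had chromosome sequence, and of these 20.0% held GAGGAAGT, against 46.1% of the sites in open chromatin. Annotated repeat took more than 50% of the 200-bp window at 40.0% of those 75 sites and at 5.70% of the open sites.

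Rank within the shared sites followed these features in part. Sites were ranked by fold enrichment, the MACS2 ratio of ChIP signal to local background at the summit, as a geometric mean over the 6 libraries. Among the 123 sites of highest rank (16.6 to 31.1) GAGGAAGT was found at 58.7% and an ATAC peak at 91.9%. Among the 123 of lowest rank (2.93 to 7.96) the shares were 26.7% and 77.2%. Windows of mostly repeat made up 4.96% at the top and 20.8% at the bottom. The fall was not even, since sites with a mean fold enrichment of 11.8 to 12.9 had the highest motif share, 59.5%. These are descriptions of sites selected on the same peak calls, and sites are not replicates of a condition.

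**Figure D1:**
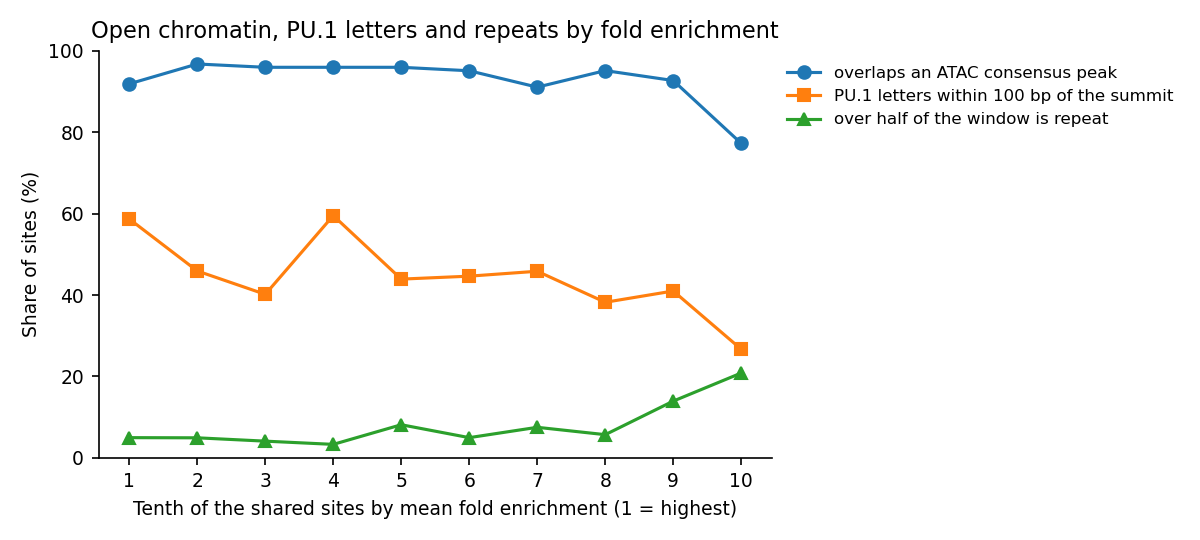
Shares of the 1229 shared PU.1 sites (y axis, %) that overlapped an ATAC consensus peak, held GAGGAAGT within 100 bp of the summit, or lay in a window of more than 50% repeat, for 10 groups of 122 or 123 sites ordered by mean fold enrichment (x axis, 1 = highest). The motif share was 58.7% in group 1 and 26.7% in group 10, where the open share was also lowest (77.2%).

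The 4 sites of highest rank lay outside open chromatin, and 2 of them were wholly repeat. In every library the shared site of highest fold enrichment was the one at chr12:3109744-3110223, with 29.8 and 28.2 in OAL, 32.9 and 31.5 in OCR, and 32.0 and 32.4 in OCRRF. All of its window was annotated repeat, its nearest gene was Rab10, and no ATAC peak overlapped it. By mean rank over the 6 libraries, the next 3 sites, in Chl1 and nearest Rpusd4 and Pak3, had mean fold enrichments of 28.8, 28.7 and 28.2, no ATAC peak and no GAGGAAGT, and repeat took 31%, 100% and 33% of their windows. At the opposite end of the ranking, at the start of chromosome 9, 11 shared sites lay within 35.2 kb (chr9:3000099-3035275), all at least 95% repeat and outside ATAC peaks, with mean fold enrichments of 3.08 to 7.62. Their nearest gene, Alkbh8, was over 300 kb away. Leaving out the sites that were mostly repeat, unplaced on a chromosome or outside open chromatin left 1075 sites, and this alternative was added with the data in view.

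Open sites with the motif began at rank 7. The site between genes on chromosome 17 nearest Gm6712 (chr17:17234198-17234650, sequence above) had fold enrichments of 25.5 and 23.6 in OAL, 27.3 and 25.0 in OCR, and 25.0 and 21.3 in OCRRF, and 114 CPM per kb in OCR replicate 1 of the ATAC-seq. The site 14.0 kb upstream of Cd81, which encodes a tetraspanin (chr7:143038543-143038962), had 25.8 and 22.6 in OAL, 25.9 and 22.6 in OCR, and 22.9 and 22.0 in OCRRF. The OAL and OCR values of the Cd81 site overlapped and their ratio was 1.00. Other sites among the top 12 were nearest Slc22a27, Qpct, Slc45a1 (within Rere), Lrmda and 1700029H14Rik (within Rasa3), with mean fold enrichments of 23.4 to 25.6. One of the 12 lay on an unplaced contig without a gene.

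Near hematopoietic transcription factor genes, the 8 sites of highest rank had mean fold enrichments of 11.8 to 17.5. Meis1, a homeobox factor of HSC self-renewal, had a site in an intron 48.8 kb from its TSS (chr11:18969963-18970366) with 14.5 and 16.9 in OAL, 19.1 and 16.4 in OCR, and 14.8 and 14.5 in OCRRF, and a further intronic site at 93.8 kb. A site in an intron of Mecom, an HSC transcriptional regulator, had 16.3 and 13.6, 17.6 and 13.0, and 15.6 and 12.8 in the same order. Sites nearest Runx1, Bcl11a, Id2, Klf4 and Runx2 had mean fold enrichments of 15.8, 13.8, 14.3, 17.5 and 11.8, and that of Klf4 lay 554 kb from its TSS. In all, 15 of the 53 listed hematopoietic transcription factors were the nearest gene of 19 shared sites. Of all 20183 genes considered, 1100 were nearest to a shared site, and the difference was not tested.

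Among signalling genes, the strongest site was in an intron of Itgb7, the integrin beta 7 subunit (chr15:102225346-102225813), with 18.5 and 19.5 in OAL, 23.6 and 20.3 in OCR, and 18.0 and 16.6 in OCRRF. Both OCR values were above both OAL values there, as at 41.2% of all 1422 shared peaks. Sites nearest Alox5ap (leukotriene synthesis), Lcp2 and Plcg2 (immune receptor signalling), Coro1a (actin regulation) and Ptprc (CD45) had mean fold enrichments of 8.55 to 16.6. Of 29 myeloid receptor and effector genes, Tyrobp (a signalling adaptor) and Ncf1 (a subunit of the phagocyte oxidase) were nearest to 3 shared sites, and of 36 leukocyte signalling and adhesion genes 6 were nearest to 7. Of 35 stem cell receptors and markers, 8 were nearest to 9 sites, led by Tgfbr1 (a TGF-beta receptor, mean 14.4). A site in an intron of Itga6 (integrin alpha 6) had 13.1 and 14.5 in OAL, 14.2 and 12.6 in OCR, and 12.5 and 8.75 in OCRRF. Of 37 cell cycle genes, 6 were nearest to 8 sites, 3 of them near Btg1, an antiproliferative gene, where the strongest had a mean of 18.7. None of these list counts was tested against the 1100 of all 20183 genes that were nearest to a shared site.

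Spi1 itself had a pair of shared sites upstream. The site 13.6 kb upstream of the RefSeq TSS (chr2:91082923-91083226, in an intron of a longer GENCODE transcript) had 8.50 and 5.49 in OAL, 15.0 and 9.29 in OCR, and 9.43 and 7.74 in OCRRF. Both OCR values were above both OAL values, as at 41.2% of all 1422 shared peaks, at a ratio of 1.73. A stronger site 26.0 kb upstream (chr2:91070389-91070930), whose nearest TSS was that of the proteasome gene Psmc3 and which was named after its values were seen, had 23.2 and 23.4, 24.0 and 22.7, and 19.8 and 18.8 in the same order. Here OAL and OCR overlapped. Neither held GAGGAAGT near its summit. Spi1 RNA was 52.9, 59.5, 55.2 and 58.1 CPM in OAL, 63.8, 64.4, 58.5 and 58.6 CPM in OCR, and 49.0 and 52.6 CPM in OCRRF. The OCR and OAL ranges overlapped and the log2 fold change was 0.13 (SE 0.08, adjusted p = 0.517 in edgeR), so no difference in Spi1 RNA passed the test.

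**Figure D2:**
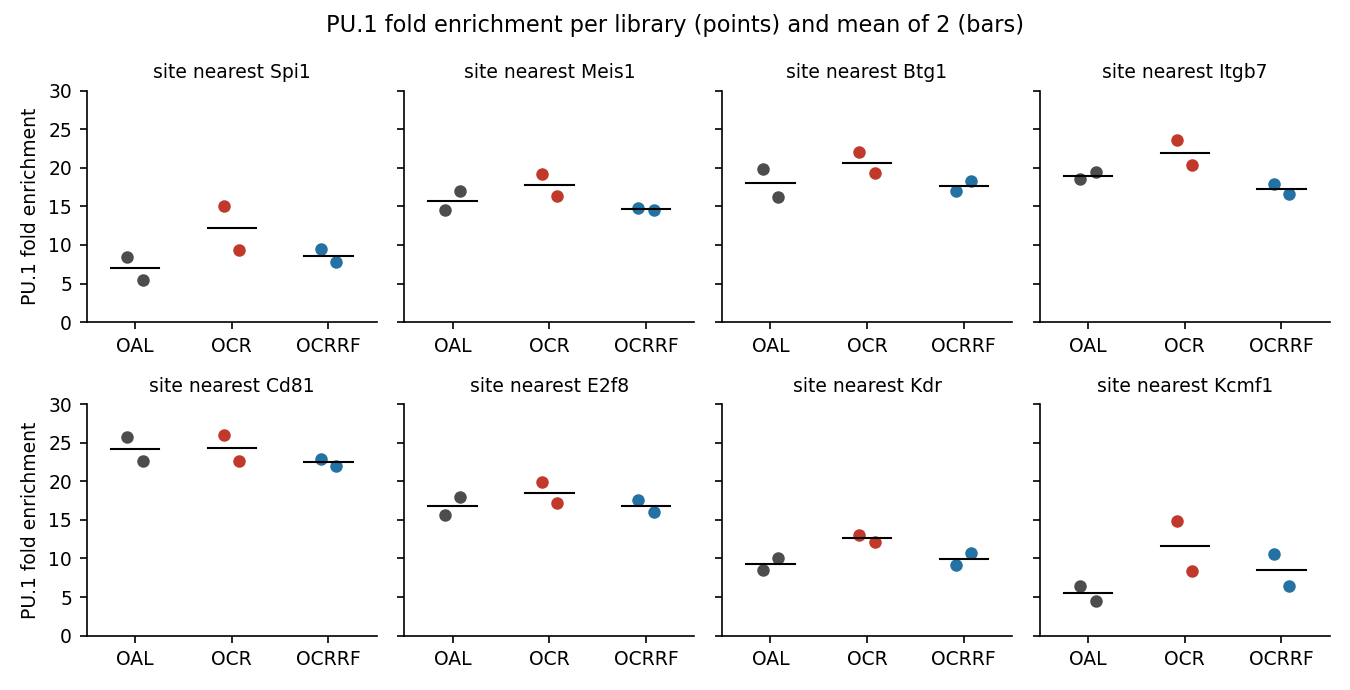
PU.1 fold enrichment (y axis, ratio to background) at 8 shared sites in each library (points) by diet (x axis), with the mean of the 2 libraries (bars). The site nearest Spi1 had 8.50 and 5.49 in OAL and 15.0 and 9.29 in OCR, while the Cd81 site overlapped between OAL and OCR.

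Across all shared sites, fold enrichment was highest in OCR libraries. Medians over the 1229 sites were 11.2 and 10.7 in OAL, 13.5 and 12.0 in OCR, and 10.5 and 9.41 in OCRRF. The median percentile of the sites among all peaks of their library was 75.2 and 74.1 in OAL, 86.2 and 81.0 in OCR, and 73.6 and 67.2 in OCRRF. OCR libraries also had the most peaks in all (5464 and 3852, against 3046 and 2900 in OAL and 2817 and 2262 in OCRRF). The median fold enrichment of all peaks was 8.40 and 8.20 in OAL, 7.86 and 8.07 in OCR, and 8.13 and 7.99 in OCRRF. A percentile depends on how many weaker peaks its library holds, so it is not a separate measure of binding. The peak files hold no read totals. In the de-duplicated, uniquely mapped reads that the study lists, no OCR library was deeper than an OAL library. In its total and mapped reads OAL and OCR libraries overlapped, and the part of depth was not tested. By geometric mean over replicates, OCR was the highest diet at 950 sites (77.3%) and OCRRF the lowest at 795 (64.7%).

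**Figure D3:**
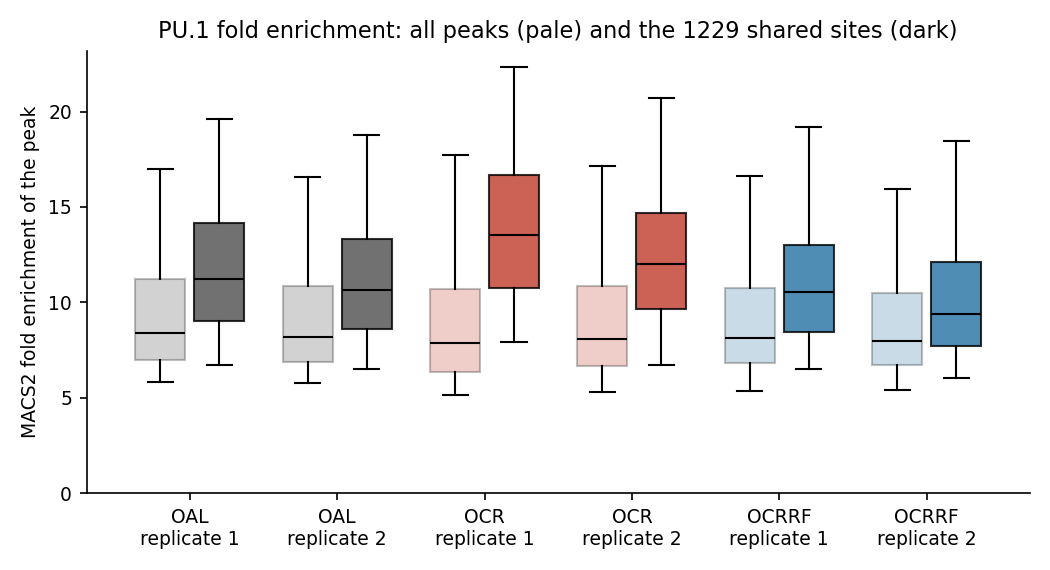
PU.1 fold enrichment (y axis) of all peaks of each library (pale) and of the 1229 shared sites (dark), with boxes for the quartiles, a line for the median and whiskers from the 5th to the 95th percentile. Medians of the shared sites were 13.5 and 12.0 in OCR and 9.41 to 11.2 in the other libraries.

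The median ratio of OCR to OAL was above 1 in both replicates. The OCR to OAL ratio had a median of 1.18 in replicate 1 and 1.09 in replicate 2, and it was above 1 in both at 685 sites (55.7%) and below 1 in both at 89 (7.24%). The limma median log2 difference was 0.18 over the sites, 0.18 over all 1422 shared peaks and 0.19 over those at promoters. It was above 0 at 81.6% of the sites and 82.3% of all 1422. The median log2 difference of replicate 1 from replicate 2 within a diet was 0.07 (OAL), 0.15 (OCR) and 0.11 (OCRRF). At a single site, regardless of sign, the 2 replicates of a diet differed by a median of 0.20 (OAL), 0.22 (OCR) and 0.23 (OCRRF) on the log2 scale. Both OCR libraries were above both OAL libraries at 520 shared sites and below at 47. The backgrounds over all 1422 shared peaks, those at promoters included, were 41.2% and 3.52%. In limma, 0 shared sites were called higher and 0 lower (background 0% of 1422 in each direction) at an adjusted p below 0.05 and a fold above 1.5, with 135 at an unadjusted p below 0.05. The same peak calls chose the sites, so nothing is read from these counts. Replicate 1 libraries shared an antibody by their labels, and with the replicate number as a block 4 sites were called higher. Centring each library on its median over the shared peaks, which removes any shift common to the library, moved the median log2 difference to -0.029.

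In refed mice the fold enrichment of most shared sites was lower than in OCR, before any scaling between libraries. The OCRRF to OCR ratio had a median of 0.807 in replicate 1 and 0.8293 in replicate 2, and it was below 1 in both at 865 sites (70.4%) and above 1 in both at 36 (2.93%). The limma median log2 difference was -0.29, both over the sites and over all 1422 shared peaks. It was above 0 at 9.19% of the sites and 9.21% of all 1422. Limma called 0 sites in either direction (background 0%), with 300 at an unadjusted p below 0.05. With the replicate block 58 were called lower, and without OCRRF replicate 1 the count was 45. As above, the sites were chosen on these peak calls, and nothing is read from these counts. Both OCRRF libraries were below both OCR libraries at 55% of the 1422 shared peaks and above at 1.9%. Centring on library medians turned the median to 0.060. At the 89 sites outside open chromatin the median log2 difference was -0.09. The OCRRF to OAL ratio was below 1 in both replicates at 486 sites (39.5%) and above 1 in both at 175 (14.2%). No share over all 1422 shared peaks was taken for this ratio, and nothing is read from its counts.

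Fold enrichment kept its order between libraries to a similar degree within and between diets. Spearman correlations across the 1229 sites, a description with no test since sites share libraries and background, ranged from 0.696 (OCRRF replicates 1 and 2) to 0.777 (OCR replicates 1 and 2).

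The sites with the widest diet ratios had mean fold enrichments of 7.03 to 12.7, so none was among the sites of highest rank. The highest OCR to OAL ratios were at sites in introns of Kcmf1 (2.08) and Msrb3 (1.82), in Zc3h7a nearest Txndc11 (1.97), and between genes nearest Gsdmc (2.05) and Map4 (1.94). At the Kcmf1 site, fold enrichment was 6.46 and 4.47 in OAL, 14.8 and 8.43 in OCR, and 10.5 and 6.43 in OCRRF. The Msrb3 site, with GAGGAAGT 5 bp from its summit, had 9.82 and 10.6, 18.5 and 18.6, and 8.80 and 12.9. The lowest ratios were nearest Gm5108 (0.654), Cdk5rap2 (0.656), Epas1 (0.689), Tgfbr2 (0.719) and Entpd3 (0.726). At the Gm5108 site the values were 13.1 and 9.90 in OAL against 7.02 and 7.90 in OCR. These extremes were picked by their ratio and are not tested.

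**Figure D4:**
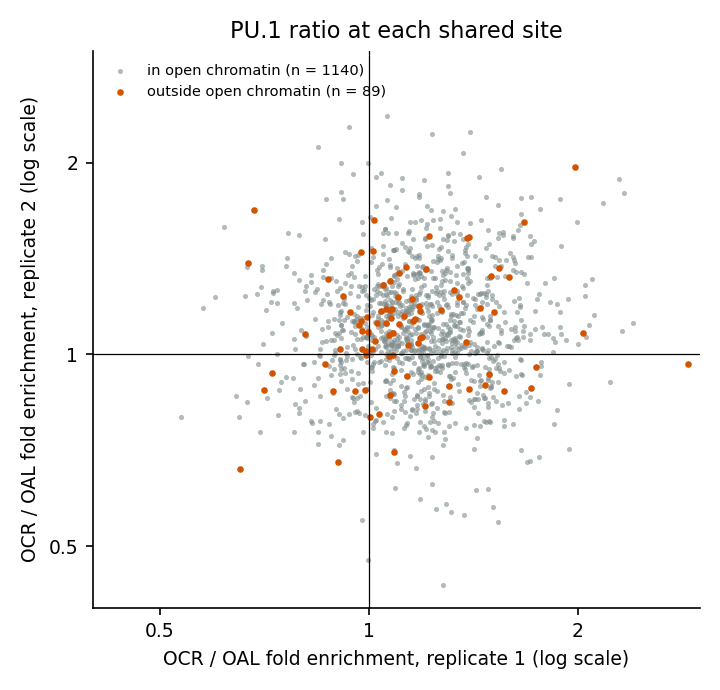
OCR to OAL ratio of PU.1 fold enrichment in replicate 1 (x axis, log scale) and replicate 2 (y axis, log scale) for each of the 1229 shared sites, with the 89 outside open chromatin in orange. The cloud is centred above 1 on both axes (medians 1.18 and 1.09), with 685 sites above 1 on both.

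Membership near the edge of the rule turned mostly on the OCRRF libraries. These also had the fewest peaks in all (2817 and 2262), and the parts of library depth and diet were not tested. Of the 406 peaks outside promoters missing from exactly 1 other library, 208 were missing only from OCRRF replicate 2, 87 from OCRRF replicate 1, 71 from OAL replicate 2, 34 from OCR replicate 2 and 6 from OCR replicate 1. Just inside, the Kcmf1 site had the weakest peak call of any member (-log10 q of 2.25 in its lowest library), followed by the site nearest Tmco5 (2.41). Just outside, the peak nearest Lsm6 had 12.3 and 12.8 in OAL, 12.9 and 14.5 in OCR, 13.8 in OCRRF replicate 1 and no peak in OCRRF replicate 2. Without OCRRF replicate 2 the rule gave 1437 sites.

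Genes nearest the shared sites had a higher median CPM, not scaled to gene length, than protein-coding genes at large. The 1229 sites had 1100 nearest genes, 1010 of them with 1 site and 90 with several. Mean RNA over the 10 old libraries had a median of 32.7 CPM for these genes, against 32.7 CPM for genes nearest only to peaks outside promoters that were not shared by all and 8.10 CPM for all 20183 genes considered. In OCR HSCs the median H3K4me3 signal at their promoters was 26.2 and 25.1, against 16.2 and 15.5 for all, and the median H3K27me3 signal was 0.236 and 0.243, against 0.314 and 0.318. Genes nearest only to peaks that were not shared by all had medians of 26.0 and 24.8 for H3K4me3 and 0.224 and 0.241 for H3K27me3. RNA levels here are per library and not per length, so single genes are not compared with each other. The part of gene length in the difference between the sets was not tested.

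Of the 1100 nearest genes, 1044 passed the filter on low counts for OCR against OAL. RNA-seq libraries held 23497989 to 34385179 counts and ATAC-seq libraries 15721335 to 19558148. In bulk samples, fewer cells of a type and less RNA per cell cannot be told apart. Marker genes of HSCs (Procr, Slamf1, Mecom, Hlf, Fgd5, Kit, Ly6a) summed to 3212 to 3768 CPM in OAL, 2904 to 3542 in OCR and 2841 to 2874 in OCRRF, and 3 of the 7 were called lower in OCR. Those of neutrophils and monocytes summed to 20.2 to 85.1, 24.6 to 109.9 and 90.5 to 93.8 CPM with 1 of 10 higher, erythroid markers to 20.5 to 95.5, 21.4 to 60.3 and 36.4 to 69.7 with 1 of 5 lower, and megakaryocyte markers to 209.5 to 230.1, 221 to 313 and 188 to 189 with 0 of 3 tested called. B cell markers (37.5 to 48.1 over all libraries), T cell markers (1.58 to 3.58) and progenitor genes outside the gate (125 to 170) had no gene called, and no listed marker was at 0 in all libraries. Their part in the results below was not tested.

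Under CR, more of the nearest genes fell than rose. Called higher in OCR were 44 of the 1044 (4.21%, background 2.54% of all 27150 tested genes) and called lower 81 (7.76%, background 3.03%), by edgeR at an adjusted p below 0.05 and a fold above 1.2. The background was higher among expressed genes, and of all 12441 genes averaging 5 CPM or more 4.93% were higher and 6.08% lower. Among the 763 nearest genes at that level 43 (5.64%) were higher and 78 (10.2%) lower. Genes nearest only to peaks that were not shared by all gave 4.94% higher and 6.46% lower of 991, and the difference from the shared sites was not tested. The median log2 fold change was -0.0072 over the nearest genes and 0.023 over all genes tested. Genes nearest a site with GAGGAAGT were called higher in 14 and lower in 40 of 487. Split by the OCR to OAL ratio of PU.1 at the site, the third with the lowest ratios (0.656 to 1.07) had 8.15% of 368 genes lower and 5.43% higher, and the third with the highest (1.21 to 2.08) had 8.11% of 370 lower and 3.78% higher.

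The genes that rose furthest included several of the cell cycle. Mki67, a marker of proliferating cells with a shared site 19.6 kb upstream, had 32.4, 41.8, 34.8 and 35.8 CPM in OAL, 127, 156, 102 and 116 CPM in OCR, and 38.4 and 36.9 CPM in OCRRF. Every OCR library was above every OAL library, a rise of 1.79 on the log2 scale (SE 0.11, adjusted p = 1.3e-11 in edgeR). Its site had similar fold enrichment in OAL (11.7 and 8.73) and OCR (13.2 and 10.2), where the ranges overlapped. E2f8, an E2F-family repressor active in S phase, had a site with GAGGAAGT in an intron of Nav2, 27.3 kb away. Its RNA was 6.54, 6.58, 7.65 and 5.85 CPM in OAL, 25.1, 23.6, 19.5 and 15.3 in OCR, and 4.62 and 6.84 in OCRRF, a rise of 1.65 on the log2 scale (SE 0.15, adjusted p = 1.02e-08 in edgeR). Anln, an actin-binding protein of cytokinesis, rose by 1.30 (SE 0.12), Rmi2, a subunit of a DNA repair complex, by 1.15 (SE 0.21) and Krt80, a keratin, by 0.96 (SE 0.14) on the log2 scale. Depdc1b also rose, from 3.77 to 6.27 CPM in OAL to 9.10 to 14.6 CPM in OCR. Cdk6, a kinase of G1 progression with a site 145 kb upstream, had 173, 184, 116 and 141 CPM in OAL against 323, 266, 220 and 206 in OCR, and rose by 0.73 (SE 0.12). Ccnd1, cyclin D1, rose by 0.34 (SE 0.10, edgeR adjusted p = 0.0338) with overlapping groups, and 7 of its alternatives lost the call. Of the 37 cell cycle genes in the list 23 were called higher, and of the 6 nearest a shared site 3 were higher (Mki67, Cdk6, Ccnd1) and 1 lower (Mycn).

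The genes that fell furthest held receptors, signalling genes and a retinoid enzyme. Cyp26b1, which degrades retinoic acid, was nearest to 3 shared sites, the strongest in an intron of Exoc6b with a mean fold enrichment of 12.7. Its RNA was 71.1, 91.2, 68.0 and 79.3 CPM in OAL, 22.1, 33.7, 33.7 and 43.4 in OCR, and 64.6 and 53.9 in OCRRF. No OCR library reached the OAL range, and RNA fell by 1.21 on the log2 scale (SE 0.13, adjusted p = 2.31e-07 in edgeR). Kdr, the receptor for vascular endothelial growth factor, had a shared site 2.69 kb upstream (chr5:75981034-75981332) with 8.53 and 10.0 in OAL, 13.0 and 12.1 in OCR, and 9.20 and 10.7 in OCRRF. Kdr RNA was 44.3, 48.0, 41.6 and 43.3 CPM in OAL, 13.9, 18.1, 20.8 and 27.0 in OCR, and 49.8 and 34.5 in OCRRF, and fell by 1.14 on the log2 scale (SE 0.13, adjusted p = 7.8e-07 in edgeR). Both OCR values of PU.1 at this site were above both OAL values, while RNA was lower in every OCR library. The PU.1 order was that of 41.2% of all 1422 shared peaks, and a link to the RNA was not tested. Id2, an inhibitor of basic helix-loop-helix factors, had 62.4, 57.4, 51.7 and 64.2 CPM in OAL and 24.3, 26.8, 35.3 and 27.2 in OCR, and fell by 1.05 on the log2 scale (SE 0.11). Slfn2 fell by 1.31 (SE 0.20), the pseudokinase gene Trib2 by 0.98 (SE 0.10) and the co-receptor gene Nrp2 by 0.97 (SE 0.19), and for these 3 genes also the groups did not overlap. Mycn fell by 0.55 (SE 0.09), from 496 to 608 CPM in OAL to 338 to 435 in OCR.

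**Figure D5:**
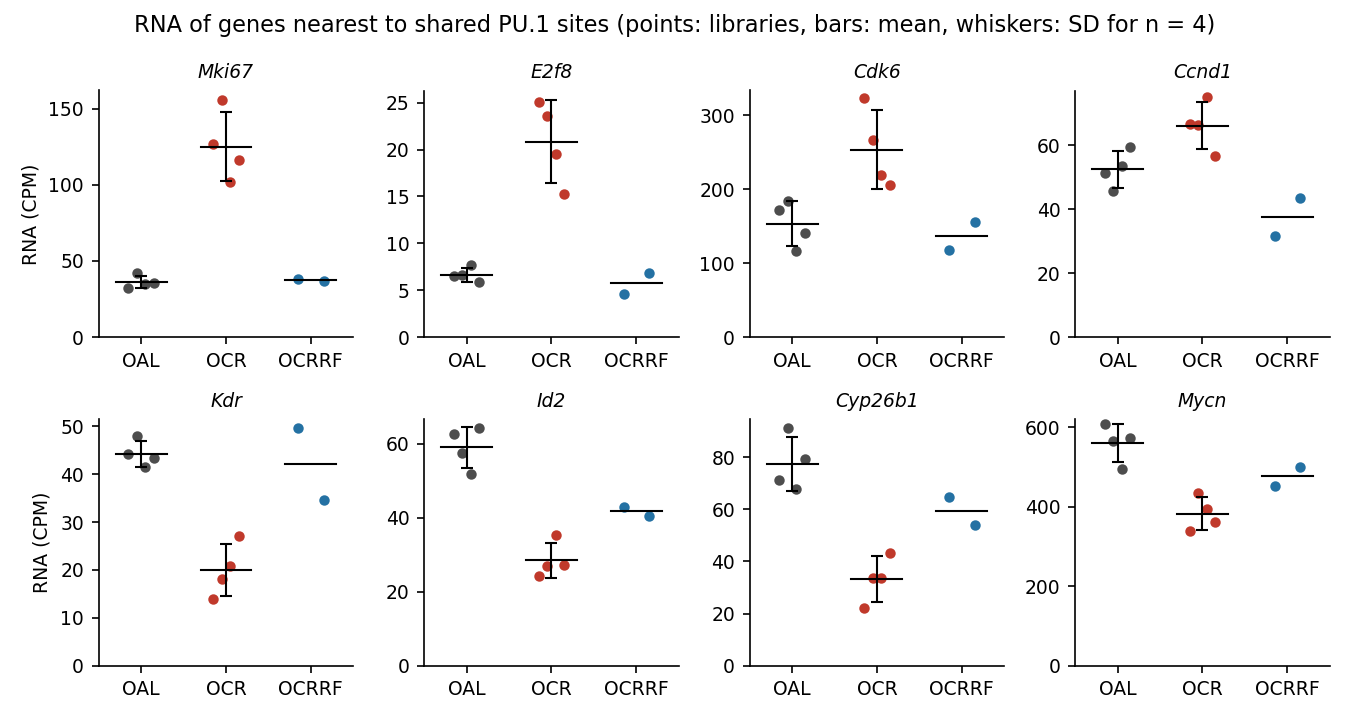
RNA in CPM (y axis) of 8 genes nearest to shared PU.1 sites in each library (points) by diet (x axis), with the mean (bars) and SD (whiskers, n = 4, none for the 2 OCRRF libraries). Mki67, E2f8 and Cdk6 had all OCR points above all OAL points, Kdr, Id2, Cyp26b1 and Mycn had them below, while the groups of Ccnd1 overlapped.

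Calls at genes nearest a shared site are given by listed group, beside shares of 2.54% higher and 3.03% lower over all genes tested. Among genes averaging 5 CPM or more these shares were 4.93% and 6.08%, and the lists were not tested against them. Of the 15 transcription factor genes, Runx3 rose by 0.76 (SE 0.11) and Hhex, Id2 and Klf6 fell, by 0.42 (SE 0.10), 1.05 (SE 0.11) and 0.57 (SE 0.10). Runx3, Hhex and Klf6 were named after their values were seen. Of the whole list, 2 of 52 tested were higher and 10 lower. Meis1 (708 to 809 CPM in OAL, 585 to 718 in OCR) and Mecom (310 to 356 and 266 to 333) had log2 fold changes of -0.16 (SE 0.08) and -0.13 (SE 0.08) and did not pass. In the stem cell group Kdr and Eng (a TGF-beta co-receptor, which fell by 0.34, SE 0.08) were called among 8, against 15 lower and 0 higher of 34 in the list. Lcp2 fell by 0.32 (SE 0.08), the sole call among the 6 signalling genes, and neither myeloid gene was called. The medians over the nearest genes were -0.16, -0.27, 0.02 and 0.20 for transcription factors, stem cell genes, signalling and myeloid genes. Over the whole lists they were -0.15, -0.28, 0.05 and 0.02 in the same order. For cell cycle genes the median was 0.11 over the nearest genes and 0.61 over the list. The median of all genes tested was 0.023. The largest fall of a nearest gene, named after its values were seen, was that of Hbb-bs, a beta globin with near-identical copies, so that its counts are uncertain. Its RNA was 79.0, 14.9, 79.4 and 125 CPM in OAL and 11.3, 13.8, 29.5 and 9.51 in OCR. The groups overlapped, the log2 fold change was -2.22 (SE 0.35), and the erythroid markers summed to 20.5 to 95.5 CPM in OAL and 21.4 to 60.3 in OCR. Their part in this fall was not tested.

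Genes with 3 or more shared sites numbered 14, named here after their values were seen. Of these, Cyp26b1, Ptger4 (a prostaglandin receptor) and Foxp1 (a forkhead factor) were called lower, the last at 158.9 to 172.7 CPM in OAL and 124.6 to 134.5 in OCR (log2 fold change -0.34, SE 0.08). Ptger4 fell from 150.8 to 163.0 CPM in OAL to 90.4 to 116.1 in OCR, a log2 fold change of -0.57 (SE 0.08). Not called were Alkbh8 (11 sites), Tcp10c (5), Ube2e3 (4) and, with 3 each, Srgn, Elmo1, Ywhaz, Zfhx3, Btg1, Bcat1, Gm2237 and Lrrc4c. Of all 27150 genes tested 3.03% were called lower, and of those averaging 5 CPM or more 6.08%.

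At the promoters of the named genes, histone signal in OCR HSCs varied widely. H3K27me3 was 1.67 and 1.87 at Kdr, 4.65 and 4.41 at Nrp2, 3.74 and 3.41 at Runx3 and 2.38 and 2.06 at Epas1, against medians of 0.236 and 0.243 over nearest genes. H3K4me3 was 37.1 and 31.8 at Mki67 and 26.2 and 21.2 at Kdr, but 0.0906 and 0.441 at the Cyp26b1 window and 0.535 and 0.718 at the Krt80 window.

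With refeeding, 20 of 1075 nearest genes were called higher than in OCR (1.86%, background 0.694% of 32577) and 59 lower (5.49%, background 2.71%). At a mean of at least 5 CPM, 17 and 59 of 763 were called (2.23% and 7.73%), against 1.29% and 6.86% of all genes at that level. These counts depended on single libraries. They were 15 and 27 without OCR replicate 2, 48 and 114 without OCR replicate 3, 13 and 80 without OCR replicate 1, 2 and 15 without OCRRF replicate 1 and 20 and 20 without OCRRF replicate 2. DESeq2 called 13 higher and 137 lower. In OCRRF against OCR, Mki67 had a log2 fold change of -1.76 (SE 0.15), E2f8 -1.90 (SE 0.21), Cdk6 -0.92 (SE 0.15), Kdr 1.05 (SE 0.17), Cyp26b1 0.81 (SE 0.16), Id2 0.52 (SE 0.14) and Slfn2 1.94 (SE 0.16), all called. Trib2 (0.22, SE 0.14) and Mycn (0.29, SE 0.12) were not. This comparison and that with OAL share the OCR libraries.

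Open chromatin at the shared sites differed little between OCR and OCRRF. The median level over the 1140 open sites was 14.2 to 14.7 CPM per kb in OCR and 13.7 and 14.0 in OCRRF. Of the 1136 ATAC peaks tested, 0 were called higher (background 0.13% of 123372) and 3 lower (0.264%, background 0.0908%), with 194 at an unadjusted p below 0.05. DESeq2 also gave 0 and 3. The 3 sites, named after their values were seen, lay in an intron of Cblb and far from Robo2 and Crim1. At the Cblb site (chr16:52144947-52145318), whose gene encodes a ubiquitin ligase of lymphocyte signalling, ATAC levels were 38.7, 37.8, 29.6 and 37.1 CPM per kb in OCR and 19.9 and 22.6 in OCRRF. Both OCRRF libraries were below every OCR library, with a difference of -0.72 on the log2 scale (SE 0.11, adjusted p = 0.000266 in edgeR). PU.1 fold enrichment there was 15.6 and 9.93 in OCR and 13.0 and 8.57 in OCRRF, which overlapped. The Robo2 site fell by 0.60 (SE 0.15) and the Crim1 site by 0.80 (SE 0.18), and each lost the call under 4 alternatives. Without OCR replicate 1 or 2 the count was 1 lower. Without OCR replicate 3 it was 2 lower and 2 higher, without OCR replicate 4 it was 5 lower and 2 higher, and without either OCRRF library it was 2 lower and 1 higher.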

How the data were processed

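PU.1 ChIP-seq, RNA-seq, ATAC-seq and histone ChIP-seq tables of old HSCs were used. The authors' PU.1 files hold MACS2 peaks, 1 file a library, and the columns deposited for a peak are a score, its fold enrichment (a ratio to background), and its p-value and q-value as -log10. The control library is not given in the sources used here. RNA and ATAC values were deposited as counts per gene and per consensus peak, without normalization. Histone tables were deposited as signal per promoter window (750 bp for H3K4me3, 2000 bp for H3K27me3). PU.1 and histone files hold fold enrichment and signal without the reads behind each value, so no interval of counting error is given for them.

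Where a site overlapped several peaks of a library, the highest fold enrichment was taken. Nearest genes were those of the nearest TSS among 25830 protein-coding transcripts of the deposited H3K4me3 table. Sequences and repeats came from RefSeq's GRCm38.p6 assembly, and 0 coordinates passed a chromosome end. Columns of no mapped sample numbered 0. Counts were filtered with filterByExpr, normalized with TMM and tested in R 4.3.3 with edgeR 4.0.16 by quasi-likelihood (glmQLFit, glmQLFTest) with only the groups compared. SEs were taken as log2 fold change over the root of the F statistic, in absolute value. A differential ATAC peak needed an adjusted p below 0.05, a fold above 1.5 and a mean log2 CPM above 1.5. The log2 fold enrichment of the 1422 shared peaks was fitted with limma 3.58.1. DESeq2 1.42.0, its size factors, other filters, other overlap rules, the replicate number as a block and each library left out were alternatives. On simulated counts, 200 features drawn from those with a mean log2 CPM above 1.5 were changed by a fold of 2. Features at lower levels and smaller folds were not simulated, so the recovery does not apply to them. For OCR against OAL 94% were recovered (27150 genes, 7 false). The shares were 86% for OCRRF against OCR (32577 genes, 9 false) and 82% for ATAC (123372 peaks, 17 false). For PU.1 (1422 sites) normal noise with 1 spread for all sites was added to log2 fold enrichment, and 93% were recovered (4 false). Recovery was scored by adjusted p alone, without the fold threshold. Sites with a wider spread than that noise were not simulated, so the 93% does not apply to them.

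For PU.1, residuals of same-numbered libraries correlated at -0.03, 0.01 and 0.03 (OAL with OCR, OAL with OCRRF, OCR with OCRRF), and replicate 1 shared an antibody by its labels. Named were the 12 sites of highest mean rank, up to 8 sites per gene list, the 5 highest and 5 lowest OCR to OAL ratios, sites at the edge of the rule, Spi1, and the 6 nearest genes with the largest change each way where the mean reached 5 CPM and the groups did not overlap. The sites and lists were chosen with earlier results of these data known. Values of 1 HSC marker and of 1 site are not reported here, and the marker sum was taken over the other 7 genes.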

Additional observations from a re-analysis of the deposited data

Results flagged for a closer look

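Among 123 groups of 4 libraries, 6 named genes had 1 library far from the other 3 by Dixon's criterion, and chance flags about 1 group in 20. In OAL, the highest library had 170 CPM for Alox5ap and 2.72 CPM for Tyrobp, and the lowest had 16.8 CPM for Lrmda. In OCR, the highest library had 211 CPM for Lcp2 and 18.3 CPM for Rmi2, and the lowest had 18.9 CPM for Slfn2.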

How the results depend on the processing

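The number of shared sites was 1220 with at least 50% of the peak covered, 1219 with the summit inside every peak, 1221 at a -log10 q of at least 3, 1225 from OCR replicate 1, 1169 with promoters within 1000 bp of a TSS, 1328 with the replicate 2 libraries, 1730 with replicate 1 libraries alone, and 1235 to 1437 with a library left out. Leaving out the mostly repeat, unplaced or closed sites, an alternative chosen after seeing the data, moved none of the counts by over 1.5 times. For OCR against OAL, nearest genes called were 32 to 50 higher and 55 to 78 lower with a library left out, and 53 lower within 50 kb of the TSS. For OCRRF against OCR they were 13 higher and 137 lower with DESeq2, and 2 to 48 higher and 15 to 114 lower with a library left out. For ATAC, leaving out a library gave 0 to 2 higher and 1 to 5 lower. For PU.1 it gave 0 to 1 higher for OCR against OAL and 0 to 45 lower for OCRRF against OCR, and centring gave 1 higher for OCRRF against OCR and turned both medians (-0.029 and 0.060). With the replicate block, calls became 56 higher and 142 lower (RNA, OCRRF against OCR), 6 higher and 7 lower (ATAC), 4 higher (PU.1, OCR against OAL) and 58 lower (PU.1, OCRRF against OCR), and the RNA count for OCR against OAL was 38 higher and 80 lower. Residuals of same-numbered RNA and ATAC libraries correlated at -0.12 to 0.15. With 2 OCRRF libraries the residuals of 1 mirror those of the other, so these correlations do not settle whether the numbers pair libraries. With 2 libraries against 4 or 2, a lone library is assumed to vary like the other groups. The causes were not tested. Of 24 named genes called for OCR against OAL, 18 kept their call under all 13 alternatives and none changed direction. The calls of Ccnd1, Cdk5rap2, Epas1, Lcp2, Eng and Map4 were lost in 1 to 8 of them. For OCRRF against OCR 5 of 17 kept it under all. The PU.1 files give no reads per peak, so no counting error can be given for fold enrichment.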
